A study of Mus musculus with 6 samples.

Results

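The NADPH oxidase of phagocytes was followed through the genes of 5 of its subunits: Cybb, Cyba, Ncf1, Ncf4 and Rac2. Members were all probe sets that the platform annotation assigns to exactly one of these symbols. This gave 7 probe sets of 4 genes, out of 45141 probe sets and 17097 genes named by a single symbol. They comprise 3 probe sets of Cybb, 2 of Rac2 and 1 each of Cyba and Ncf4. Ncf1 was not analysed here, because no probe set carries that symbol in the annotation used.

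Blood T cells of 3 female C57BL/6 mice, labelled A, C and D and 6 to 8 weeks old, were sorted on CD3 expression, absence of CD62L and high CD44 into a CD11c+ and a CD11c- fraction. Each of the 6 samples held 300 cells, whose cDNA was amplified and hybridised to its own Affymetrix array, so that every mouse gave 1 CD11c+ and 1 CD11c- array. The labels state that a group of 6 females had received 3 mg of Depo-Provera, a progestin, under the skin 5 days before blood was taken, and the study's methods put this a day earlier. Both fractions therefore come from treated, uninfected animals, and 1 genotype was studied.

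The oxidase transfers electrons from NADPH across a membrane to oxygen and so makes superoxide, the first product of the respiratory burst with which phagocytes kill microbes. Its membrane part joins the catalytic chain encoded by Cybb with the smaller chain encoded by Cyba, and the smaller chain stabilises the catalytic one. The cytosolic proteins encoded by Ncf1 and Ncf4, together with the GTPase Rac2, join the membrane part upon activation. Loss of Cybb, Cyba or a cytosolic subunit causes chronic granulomatous disease. Cybb is known mainly from myeloid cells and B cells, whereas Cyba and Rac2 are expressed in most blood cells, T cells among them.

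The values are log2 signals after RMA, so 1 unit is a doubling. Background was set at 5.89, the 95th percentile of mean values over 30 genes typical of other tissues, and a group mean at or under it has no exact fold. Differences are CD11c+ minus CD11c-, fitted by limma in a model with a term for each mouse, and each p is adjusted by Benjamini-Hochberg over all 45141 probe sets, with a threshold of 0.05. A difference that missed the threshold is not shown to be absent. Itgax, which encodes CD11c, was higher in the CD11c+ arrays by 4.37 (standard error 0.44, adjusted p = 0.0387). The CD3 chain genes Cd3e, Cd3d, Cd3g and Cd247 lay far above background in both fractions, with differences from -1.19 to -0.49, none of which passed the test (adjusted p = 0.0611 to 0.214). A mixture of cells was measured on each array, so a smaller number of cells of one type and less RNA per cell cannot be told apart.

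Markers of other blood cells were measured beside the oxidase genes. The counts of each gene list stand beside those of all 17097 genes, of which 1.4% were higher and 0.222% lower. At an unadjusted p under 0.05 in limma, 1262 of all genes were higher and 1272 lower. Every CD11c+ array lay above every CD11c- array for 1279 of all genes and below for 2137. Of 16 measured monocyte and macrophage genes, 8 were higher in the CD11c+ fraction, with a median log2 difference of 2.63, and their summed signal ran from 4947 to 6811 on CD11c+ arrays, against 619 to 905 on CD11c- arrays. Cd14, Cd163, Ms4a7 and Vcan of this list were not above background in either fraction. Of 10 basophil and mast cell genes, 8 were higher, with a median of 4.78 and a summed signal of 3284 to 5452, against 150 to 164 in the CD11c- fraction, where none of the 10 was above background. The conventional dendritic cell list had 6 of 13 genes higher and a median of 1.38, with Xcr1 and Zbtb46 not above background in either fraction. Its summed signal was 12557 to 15359 on CD11c+ arrays, against 545 to 729 on CD11c- arrays. H2-Ab1, Cd74, H2-Eb1 and H2-Aa were its brightest genes on CD11c+ arrays (means 11.92 to 11.07) and weigh most in that sum. Flt3, Batf3, Ciita and Irf4 had 0.78 to 1.38 and did not pass (adjusted p = 0.0501 to 0.311). Itgae had -1.09 (adjusted p = 0.0549). Of 14 neutrophil genes 1, Csf3r, was higher and the median was -0.05, while 12, S100a8, S100a9 and Ngp among them, were not above background in either fraction. The NK cell list had 5 of 11 genes higher and 1, Klrb1c, lower (-1.30, adjusted p = 0.042). Ncr1 and Klra8 of this list were not above background in either fraction. The summed signal was 7346 to 7897 on CD11c+ arrays, against 2318 to 2409 on CD11c- arrays. Tyrobp, the brightest of the list on CD11c+ arrays (mean 11.60), had 4.72 (adjusted p = 0.01). The B cell list had 2 of 11 genes higher and 0 lower (6 and 1 at an unadjusted p under 0.05 in limma), with a median of 0.67. For 6 of the 11, every CD11c+ array lay above every CD11c- array. The sums were 645 to 1394 on CD11c+ arrays, against 610 to 1363 on CD11c- arrays. Blk, the brightest of the list on CD11c- arrays (mean 8.92), weighs most in the latter and had -1.28 (adjusted p = 0.19). The eosinophil list had 1 of 6 genes higher, the plasmacytoid dendritic cell list 1 of 6 higher and the erythroid and platelet list 1 of 7 higher. Of 12 T cell genes 0 were higher and 2 lower (0 and 10 at an unadjusted p under 0.05 in limma), with a median of -0.89 and a summed signal of 6400 to 8041 on CD11c+ arrays, against 12302 to 13106 on CD11c- arrays. Wholly above on CD11c+ arrays were 15 monocyte and macrophage and 9 basophil and mast cell genes, and wholly below 0. These counts were 11 and 2 for conventional dendritic, 7 and 2 for NK, 2 and 2 for neutrophil and 0 and 10 for T cell genes. At an unadjusted p under 0.05 in limma, 15 monocyte and macrophage and 9 basophil and mast cell genes were higher, 0 lower. The conventional dendritic, NK and neutrophil lists had 10 and 1, 7 and 2, and 2 and 0. The part of any of these cells in the oxidase results was not tested.

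**Figure D1:**
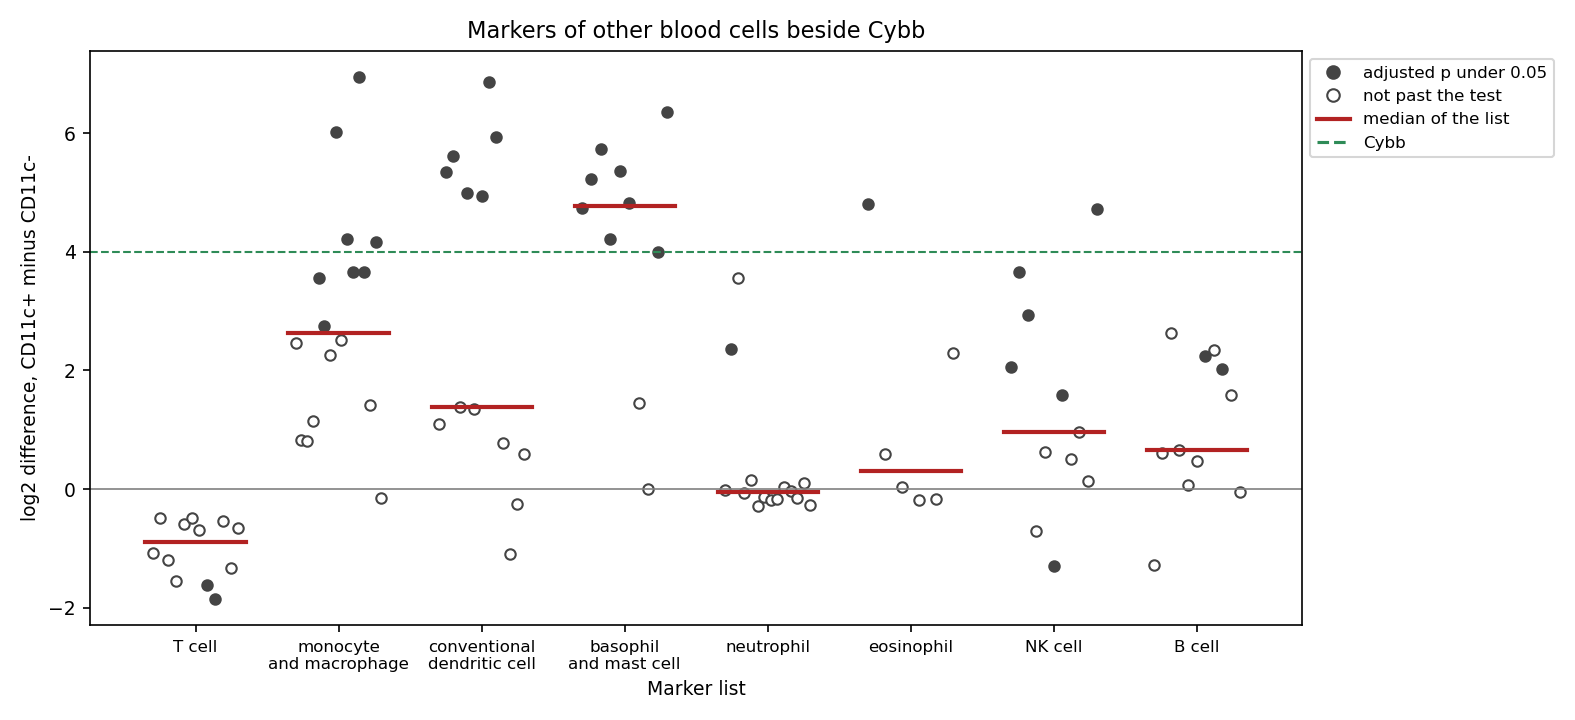
CD11c+ minus CD11c- log2 difference (vertical axis) of each measured gene of 8 marker lists (horizontal axis), filled where the adjusted p is under 0.05, with the list median as a red bar. The dashed line gives Cybb at 4.0. In the CD11c- fraction 0 of 10 basophil and mast cell genes, 2 of 16 monocyte and macrophage genes and not Cybb were above background, so these differences are not exact and have no order among them.

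Among the subunits, the catalytic chain stood apart. Cybb rose by 4.0 on the log2 scale by its brightest probe set, and all 3 of its probe sets passed the test, whereas its membrane partner Cyba, the cytosolic subunit Ncf4 and the GTPase Rac2 were well above background in both fractions and did not pass. In all, 3 of the 7 member probe sets were higher and 0 lower (4 and 0 at an unadjusted p under 0.05 in limma). Over the whole array, 0.957% of probe sets were higher and 0.168% lower. At an unadjusted p under 0.05 in limma, 2833 of the 45141 probe sets were higher and 3254 lower. The values of the CD11c+ arrays lay above all those of the CD11c- arrays for 5 of the 7, as they did for 6.4% of all probe sets, and lay below them for 0 of the 7, against 12.5% of all probe sets.

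For the membrane chains, the RefSeq sequence around the start of each gene is shown, because Cybb differed strongly between the fractions and Cyba, its partner in the same complex, did not pass the test. Each window runs from 250 bases before to 50 bases after the annotated start on GRCm38.p6 and is written on the gene's own strand, the minus strand for both. Cybb lies at chrX:9469275-9469574 and Cyba at chr8:122432891-122433190. Capitals mark matches, on either strand, to GAGGAA, the core that the myeloid factor PU.1 recognises, or to a pair of GAAA with any 2 bases between them, the repeat that interferon regulatory factors recognise.
Cybb: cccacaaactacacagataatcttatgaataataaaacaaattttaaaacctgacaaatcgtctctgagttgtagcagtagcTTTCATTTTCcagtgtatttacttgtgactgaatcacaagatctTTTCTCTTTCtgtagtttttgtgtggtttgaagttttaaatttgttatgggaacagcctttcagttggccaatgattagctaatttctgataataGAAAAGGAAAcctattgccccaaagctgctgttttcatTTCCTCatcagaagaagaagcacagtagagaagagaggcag
Cyba: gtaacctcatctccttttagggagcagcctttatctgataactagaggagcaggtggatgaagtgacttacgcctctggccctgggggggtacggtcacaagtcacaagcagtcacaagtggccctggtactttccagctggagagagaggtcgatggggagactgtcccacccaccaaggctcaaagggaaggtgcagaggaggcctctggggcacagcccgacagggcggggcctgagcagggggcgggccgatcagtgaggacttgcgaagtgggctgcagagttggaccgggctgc
The Cybb window held 1 match to GAGGAA, on the opposite strand at bases 260 to 265 counted from its 5′ end, and 3 matches to the GAAA pair at bases 83 to 92, 127 to 136 and 222 to 231. The Cyba window held neither. Of the 32851 windows of this length in the sequence table, which does not hold every gene, 28.28% held GAGGAA and 3.443% held the GAAA pair. The motif TTNNGNAA of the C/EBP factors was in neither window and in 40.68% of all windows. The matches did not overlap one another. They describe letters only, and no binding was measured. Ncf4 and Rac2 have no entry in the sequence table.

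Cybb, the catalytic chain, had log2 values of 9.22, 9.80 and 9.71 on the CD11c+ arrays of mice A, C and D by its brightest probe set, 1422978_PM_at, against 5.53, 5.34 and 5.86 on the CD11c- arrays of the same mice. The lowest CD11c+ array was thus far above the highest CD11c- array, and all 3 CD11c- values lay under the background level. The CD11c+ arrays averaged 9.58 ± 0.31 and the CD11c- arrays 5.58 ± 0.26 (SD, n = 3 mice each), which gave a log2 difference of 4.0 (standard error 0.20, adjusted p = 0.00805 from limma), higher in 3 of 3 mice. Taken against the background level, Cybb was at least 12.85-fold higher in the CD11c+ fraction.

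The other Cybb probe sets gave differences of the same order from dimmer signals. Probe set 1436778_PM_at had 8.18, 8.66 and 8.16 on the CD11c+ arrays of mice A, C and D, against 3.97, 5.30 and 5.04 on the CD11c- arrays, a difference of 3.57 (standard error 0.25, adjusted p = 0.018). Probe set 1436779_PM_at had 7.69, 7.89 and 8.16 on the CD11c+ arrays, against 3.81, 4.15 and 3.16 on the CD11c- arrays, a difference of 4.21 (standard error 0.29, adjusted p = 0.0173). No CD11c- array was above background for either, and the folds against background were at least 5.44 and at least 4.06. The mouse with the largest difference was not the same for the 3 probe sets: mouse C at 4.46 for the first, mouse A at 4.22 for the second and mouse D at 5.00 for the third. Without mouse A none of the 3 passed (adjusted p = 0.108, 0.099 and 0.162), in a fit where 0 probe sets of the whole array passed (5563 at an unadjusted p under 0.05 in limma), and the differences were then 4.15, 3.24 and 4.37. Without mouse C the second did not pass (adjusted p = 0.061).

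**Figure D2:**
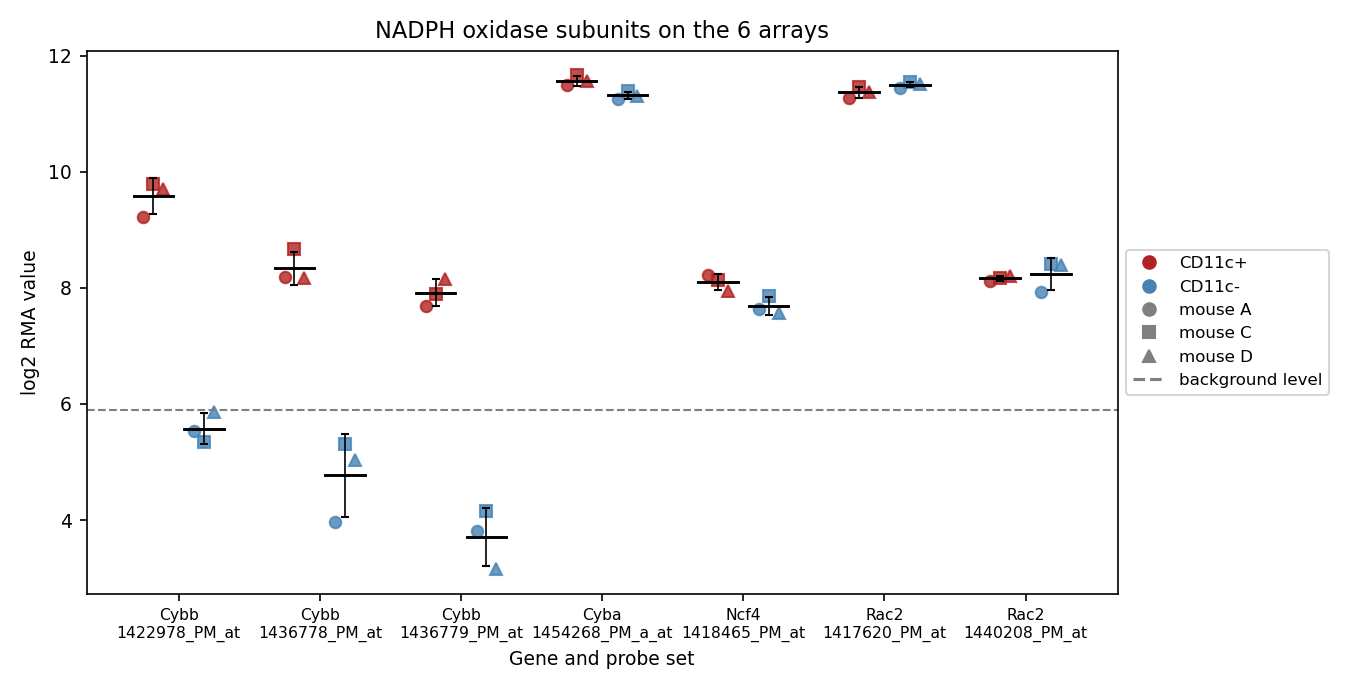
Log2 RMA values (vertical axis) of the 7 probe sets of Cybb, Cyba, Ncf4 and Rac2 (horizontal axis) for the 6 arrays, with colour for the fraction, marker shape for the mouse, black bars for the mean of 3 mice and whiskers for 1 SD. The CD11c+ and CD11c- arrays are separated by a difference of 3.57 to 4.21 for Cybb, whose CD11c- values lie under the dashed background level of 5.89, while the other genes lie above that level on every array.

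Cyba, the stabilising chain of the membrane part, was bright on every array, with a mean above that of 99.77% of all probe sets. For the brightest Rac2 probe set this share was 99.75%. Whether signals so near the top still scale fully with the amount of RNA was not tested. The log2 values of Cyba were 11.49, 11.66 and 11.56 on the CD11c+ arrays of mice A, C and D, against 11.26, 11.39 and 11.31 on the CD11c- arrays. The groups did not overlap, but the difference was small: 0.25 (standard error 0.12, 95% interval -0.08 to 0.58), which did not pass the test (adjusted p = 0.496). The interval is not adjusted for the number of probe sets tested. With a variance trend in limma, the same difference had a standard error of 0.04 and an adjusted p of 0.0503. How near Cyba came to the threshold thus depended on the variance model.

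Ncf4 encodes a cytosolic subunit that binds a phosphoinositide of the phagosome membrane. Its values were 8.23, 8.14 and 7.95 on the CD11c+ arrays of mice A, C and D, against 7.63, 7.86 and 7.57 on the CD11c- arrays. Every CD11c+ array was higher than every CD11c- array, by 0.60, 0.28 and 0.38 within the 3 mice. The difference of 0.42 (standard error 0.14, 95% interval 0.05 to 0.79) did not pass the test (adjusted p = 0.318, unadjusted p = 0.0347).

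Rac2 encodes the GTPase of blood cells that switches the oxidase on and also acts on the actin skeleton. By its brightest probe set, 1417620_PM_at, it had 11.27, 11.46 and 11.37 on the CD11c+ arrays of mice A, C and D, against 11.45, 11.54 and 11.51 on the CD11c- arrays. The groups overlapped, with a difference of -0.13 (standard error 0.12, 95% interval -0.47 to 0.20, adjusted p = 0.718). The dimmer probe set, 1440208_PM_at, had 8.11, 8.17 and 8.21 on the CD11c+ arrays, against 7.92, 8.41 and 8.39 on the CD11c- arrays, a difference of -0.08 (adjusted p = 0.854) whose sign differed between mouse A at 0.19 and mice C and D at -0.24 and -0.19. On the RMA scale of the main fit, a difference beyond a fold of 0.724 or 1.15 lies outside the unadjusted 95% interval of the brightest probe set. That bound depends on the scaling, because this probe set had 0.61 with the arrays centred on the CD3 chains.

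The subunits were compared within each mouse by their brightest probe sets. Because the CD11c- values of Cybb lay under background, they were set to the background level here, which gives lower bounds. The Cybb difference exceeded that of Cyba by at least 3.10, 3.63 and 3.56 on the log2 scale in mice A, C and D. It exceeded that of Ncf4 by at least 2.73, 3.63 and 3.44 and that of Rac2 by at least 3.51, 3.99 and 3.95. The difference of Ncf4 exceeded that of Rac2 by 0.78, 0.36 and 0.52, and that of Cyba exceeded that of Rac2 by 0.41, 0.36 and 0.39. Cyba minus Ncf4 was -0.36, -0.00109 and -0.13. All 6 pairs kept their order in 3 of 3 mice, but Cyba and Ncf4 were all but equal in mouse C. An exact permutation test over 3 mice cannot give a two-sided p under 0.25, and each pair, tested on the values as measured, gave p = 0.25 (0.25 after Benjamini-Hochberg adjustment over the 6 pairs).

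Of the other parts of the oxidase system, 10 of 15 listed components have a probe set here, and 0 were higher and 0 lower (1 and 0 at an unadjusted p under 0.05 in limma), with a median log2 difference of -0.03 against -0.09 over all genes. Rac1, the widely expressed relative of Rac2, had a difference of 0.02 (95% interval -0.31 to 0.36, adjusted p = 0.948) at means of 10.34 in CD11c+ and 10.32 in CD11c- cells. Rap1a, a small GTPase found with the membrane part, had 0.21 (adjusted p = 0.669). Hvcn1, the proton channel that balances the charge moved by the oxidase, had 0.58 (adjusted p = 0.223) with no overlap between the groups. Cybc1, a chaperone of the membrane part, had -0.13 (adjusted p = 0.812) and was not above background in either fraction. The relatives of Cybb, Nox4 and Duox1, and the accessory genes Duoxa1, Duoxa2 and Noxo1 were not above background in either fraction.

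Of 23 measured genes that act in the activation of the oxidase, 2 were higher and 0 lower (8 and 1 at an unadjusted p under 0.05 in limma), and their median difference was 0.01. Over all genes 1.4% were higher and 0.222% lower. Plcg2, a phospholipase that produces the messengers for calcium release and protein kinase C, had 9.11, 9.22 and 8.93 on the CD11c+ arrays of mice A, C and D, against 4.85, 4.72 and 5.15 on the CD11c- arrays, a difference of 4.18 (adjusted p = 0.00654). Syk, the kinase downstream of Fc and integrin receptors, had 8.46, 9.37 and 9.62 on the CD11c+ arrays, against 5.13, 5.67 and 4.72 on the CD11c- arrays, a difference of 3.98 (adjusted p = 0.0271). For both genes the groups were far apart and the CD11c- mean was not above background, so that Plcg2 was at least 9.16-fold and Syk at least 9.59-fold higher. Prkcd, a protein kinase C that phosphorylates the cytosolic subunits, had 2.00 (adjusted p = 0.12), and Mapk14, the p38 kinase, 1.10 (adjusted p = 0.0931). Dock2, an exchange factor for Rac in blood cells, had -0.56 (adjusted p = 0.209). Syk lost its call when either mouse A (adjusted p = 0.161) or mouse C (adjusted p = 0.0777) was left out, and Plcg2 when mouse A was (adjusted p = 0.119).

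Transcription factors known to act on the oxidase genes of myeloid cells had the most calls of the 5 oxidase lists outside the subunits. Of 8 measured genes 4 were higher and 0 lower (5 and 1 at an unadjusted p under 0.05 in limma), with a median of 1.15. The shares of all genes were 1.4% and 0.222%. Spi1, which encodes PU.1, had 8.21, 8.70 and 8.10 on the CD11c+ arrays of mice A, C and D, against 4.46, 4.49 and 4.40 on the CD11c- arrays, a difference of 3.89 (adjusted p = 0.00626). Irf8, a partner of PU.1, had 7.87, 7.77 and 7.62 on the CD11c+ arrays, against 5.42, 5.93 and 5.79 on the CD11c- arrays, a difference of 2.04 (adjusted p = 0.0313). Both factors were thus separated between the fractions with no overlap, and their CD11c- means were not above background. Cebpa, a factor of myeloid development, rose by 4.26 (adjusted p = 0.0154) and Cebpb, its relative of activated myeloid cells, by 1.80 (adjusted p = 0.0343). The 2 dimmer Cebpb probe sets, not above background in either fraction, each had 0.13 (adjusted p = 0.721 and 0.761), and the mean of the 3 had 0.69 (adjusted p = 0.075). Elf1, an ETS factor of lymphocytes, had -0.66 (adjusted p = 0.18), Irf1 0.49 (adjusted p = 0.24) and Rela, a subunit of NF-κB, -0.11 (adjusted p = 0.781). Without mouse A none of the 4 passed (adjusted p = 0.0848 to 0.158). Irf8 and Cebpb also lost their calls when mouse C (adjusted p = 0.102 and 0.106) or mouse D (adjusted p = 0.0543 and 0.072) was left out, and when each array was centred on its median (adjusted p = 0.0563 and 0.058).

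**Figure D3:**
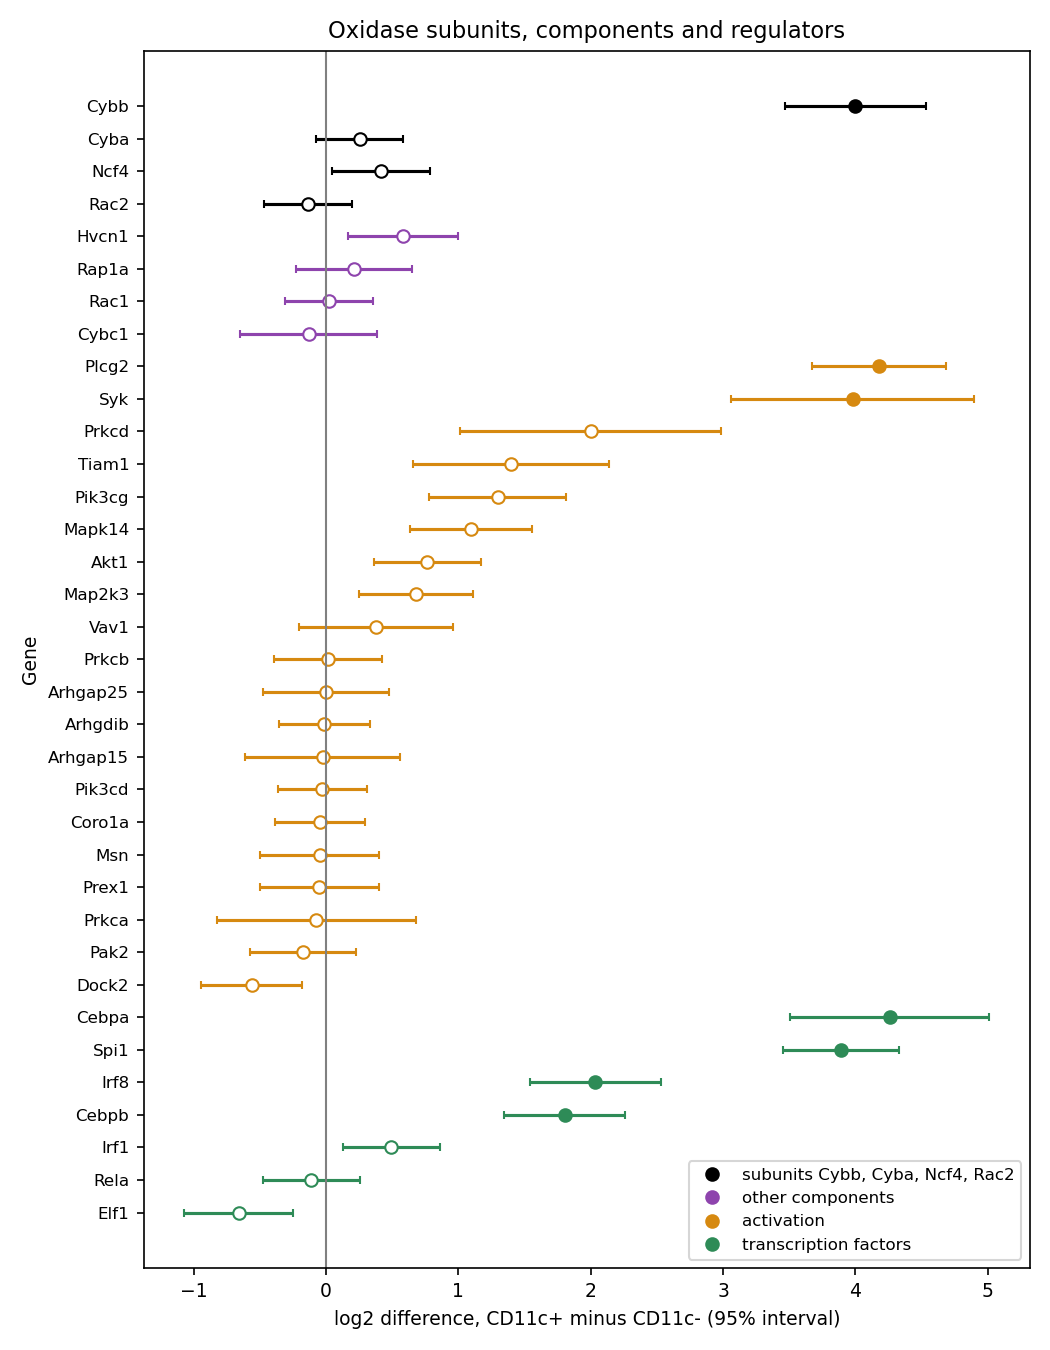
CD11c+ minus CD11c- log2 difference with its unadjusted 95% interval (horizontal axis) for the 4 measured subunits, 4 other components, and the activation and transcription factor genes above background in either fraction (vertical axis). Filled points passed an adjusted p of 0.05: among them are Cybb (4.0), Plcg2 (4.18), Syk (3.98), Cebpa (4.26) and Spi1 (3.89), each against a CD11c- mean not above background. The open points of Cyba (0.25), Ncf4 (0.42) and Rac2 (-0.13) did not pass. Their intervals hold 0 for Cyba and Rac2 and lie above it for Ncf4 (0.05 to 0.79).

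The enzymes that supply the oxidase with NADPH and those that remove its products were also followed. Of 8 measured genes of NADPH supply, 0 were higher and 0 lower (5 and 1 at an unadjusted p under 0.05 in limma), with a median difference of 0.48. Pgd, an enzyme of the pentose phosphate pathway, had 1.2 (adjusted p = 0.148), and Taldo1, another, 1.00 (adjusted p = 0.266). Of 24 genes of peroxidases and antioxidants, 1 was higher and 0 lower (6 and 0 at an unadjusted p under 0.05 in limma), with a median of 0.03. The gene that rose was Gsr, glutathione reductase, which uses NADPH to regenerate glutathione. It had 8.87, 9.43 and 9.85 on the CD11c+ arrays of mice A, C and D, against 6.63, 6.60 and 6.29 on the CD11c- arrays, a difference of 2.88 (adjusted p = 0.0364). The groups were clearly apart, and the other Gsr probe set had 3.24 (adjusted p = 0.0921). Gsr lost its call when mouse A (adjusted p = 0.151) or mouse C (adjusted p = 0.118) was left out, and when the arrays were normalized by cyclic loess (adjusted p = 0.0623). Mpo and Epx, the granule peroxidases of neutrophils and eosinophils that use hydrogen peroxide made from superoxide, were not above background in either fraction.

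For each measured subunit, the genes of the most similar pattern were sought among 6096 genes with a mean above background, by the root mean square difference of centred log2 values over the 6 arrays. For Cybb they were Sirpa, an inhibitory receptor of myeloid cells, at 0.189, Cyp4f18, a cytochrome that degrades leukotriene B4, at 0.204 and Aqp9, a channel for glycerol and water, at 0.208. For Cyba they were Lcp1, an actin-bundling protein of blood cells, at 0.0456, Abracl at 0.0572 and Preb at 0.0585. For Ncf4 they were Ptprs, Iscu and Calm3, at 0.0556 to 0.0763, and for Rac2 the ribosomal protein genes Rps16 and Rpl4 and the RNA-binding protein gene Hnrnpa1, at 0.0298 to 0.0349. The measure is small wherever 2 genes hardly vary. The Cybb neighbours had differences of 4.17 for Sirpa, 3.76 for Cyp4f18 and 3.82 for Aqp9. A difference like that of Cybb follows from how they were chosen and is not a separate result.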

How the data were processed

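The 6 arrays were 3 CD11c+ and 3 CD11c- samples, paired by mouse in the labels. Array images were read with the platform's own software, and RMA was applied by the authors, who deposited the resulting log2 values, 1 per probe set and array. The submitters' notes name RMA and limma, for which no version was found. Because RMA forces a common distribution on all arrays, a shift in total RNA per cell would be hidden. The array medians ran from 4.40 to 4.54. All 6 columns were used.

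All 45141 probe sets, with no filter, entered a two-sided test in limma 3.58.1 (R 4.3.3), with the mouse as a fixed block and Benjamini-Hochberg adjustment at 0.05. Precision was limited by the number of arrays, which leaves 2 residual degrees of freedom before moderation. Deviations from group means correlated at 0.122, 0.0758 and 0.109 within mice A, C and D, and between -0.086 and -0.0217 across mice. In the platform annotation 28898 probe sets name 1 gene, 551 name several and 15692 are unnamed. Where a gene had several probe sets, the one of highest mean stood for it. The fit was tested on simulated data with known changes.

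Members, gene lists and tests were chosen with earlier results of these data known. Named were all member probe sets, the list genes past the threshold, components the complex needs, and the 3 genes nearest to each subunit. Hvcn1, Prkcd, Mapk14, Dock2, Elf1, Irf1, Rela, Pgd and Taldo1 were named after their values were seen. So were the genes named as not above background and the named B cell, NK cell and conventional dendritic cell genes. Alternatives were the block, the normalization, the centring, a filter, a variance trend, the probe set of a gene, the percentile of the background level and leaving out each mouse. Promoter windows and motifs came from RefSeq, for 2 of the 4 measured genes.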

Additional observations from a re-analysis of the deposited data

How the results depend on the processing

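The 3 Cybb probe sets kept their direction under each of 10 alternatives, and the brightest passed in 9 of them, with differences from 3.77 to 4.74. With the mouse as a random block, or without the block that pairs the arrays, 3 member probe sets passed, as with the block, after cyclic loess, with arrays centred on their median, with a filter on dim probe sets and with a variance trend. Leaving out 1 mouse at a time gave 0 to 3 member probe sets, 0 to 5 oxidase system genes outside the members (7 in the full fit) and 0 to 392 probe sets of the array (508 in the full fit), with 0 of each without mouse A. The array count was 895 without the block, 1128 with a random block (where 11 oxidase system genes passed) and 891 with a variance trend. With probe sets averaged per gene, 6 oxidase system genes passed.

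Centring the arrays on the CD3 chains moved the median of all probe sets to 0.65, against -0.09. Then 22644 probe sets, 55 oxidase system genes and 6 member probe sets passed, and 99.0% of the calls on the array were higher, against 85.0%. Cyba had 0.99 (adjusted p = 0.012) and Ncf4 1.16 (adjusted p = 0.00501) in that setting, which is 0.34 and 0.51 above the shifted median. Rac2 turned positive there, at 0.61 (adjusted p = 0.0539) and 0.66 (adjusted p = 0.0446), but relative to that median the values were -0.04 and 0.01. This centring adds the same amount to the difference of every probe set. The dimmer Rac2 probe set also turned to 0.00521 after cyclic loess, and over the fits without 1 mouse it ran from -0.21 to 0.00069, so its direction is not settled. The cause of the lower CD3 chain signal on the CD11c+ arrays was not tested. With the 90th percentile the background level was 5.60. The CD11c- means of Irf8 (5.72) and Cybc1 (5.67) and a mean of each dimmer Cebpb probe set then lay above it, whereas those of Cybb, Spi1, Cebpa, Plcg2 and Syk did not. For the brightest Cybb probe set this was close, with a CD11c- mean of 5.58. Its CD11c- array of mouse D, at 5.86, lay above that level, and those of mice A and C, at 5.53 and 5.34, lay under it.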
